A study of Mus musculus with 18 samples.

Results

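The genes described here encode the proteins of the cytosolic ribosome. They were chosen by name as the genes whose mouse symbol is Rpl or Rps followed by a number, with at most an a or x after it, together with Rplp0, Rplp1, Rplp2 and Rpsa, and no pseudogene was among them. The rule found 76 of the 54232 genes in the count table, of which 46 belong to the large and 30 to the small subunit. All 76 are annotated as protein coding, and all 76 passed the filter on low counts that left 17074 genes for testing.

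The data were 18 RNA-seq libraries of mouse dendritic cells (DCs) from C57BL/6J mice labelled CD11a KO, and every group carries that label, so no wild-type library stands beside them. The gene Itgal encodes CD11a, a subunit of the leukocyte adhesion integrin LFA-1. The 3 DC subsets carried CD11b alone (CD11b+), CD103 alone (CD103+) or both markers (double-positive, DP), and each came from the lamina propria (LP) of the small intestine as well as from intestinal lymph nodes (LN), with 3 libraries in each of the 6 groups. The labels name no treatment, age or sex for these libraries, and they do not say whether replicates came from separate animals, so the p-values below measure the spread between these libraries only.

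A ribosome joins a small subunit, which reads the mRNA, to a large subunit, which forms the peptide bond. Each subunit is a core of ribosomal RNA covered by proteins, and cells tune the supply of these proteins largely through translation of their mRNAs. These mRNAs start with a stretch of pyrimidines (C or T in the DNA), the TOP motif, through which the kinase mTOR controls their use by ribosomes. DCs take up antigen in the intestine and carry it to the LN, where they present it to T cells, and both antigen processing and the changed protein makeup of a mature DC draw on translation.

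The sequence around the annotated start of several members is shown because it shows which of them have such a stretch there. Rps27, Rps24 and Rpl15 do, with runs of 7, 6 and 13 bases from that start. Rps19, Rpsa and Rpl12 have 0, Rpl10a 1 and Rpl31 3. In Rpl12 a run of 7 bases begins at the base after the annotated start. A single annotated start was used per gene, so a short run there does not show that the mRNA lacks a TOP motif. Windows around the start site were found for 56 of the 76 members among RefSeq promoters (build GRCm38.p6), and each window below runs from 15 bases before the start site to 15 bases from it, 5′ to 3′ on the coding strand, with the longest run of C and T in the window in capitals. Rps27, Rps19 and Rpsa were the members highest in LN CD103+ DCs relative to LP, Rpl10a, Rpl12 and Rpl31 were among those with the largest falls, and Rps24 and Rpl15 differed between subsets.
Rps27 (chr3:90213634-90213663, minus strand): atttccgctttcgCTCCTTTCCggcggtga
Rps19 (chr7:24884577-24884606, plus strand): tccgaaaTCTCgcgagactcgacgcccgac
Rpsa (chr9:120127751-120127780, plus strand): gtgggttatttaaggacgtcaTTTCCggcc
Rps24 (chr14:24490663-24490692, plus strand): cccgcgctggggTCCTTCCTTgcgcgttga
Rpl15 (chr14:18270972-18271001, minus strand): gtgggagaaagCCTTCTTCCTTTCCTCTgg
Rpl10a (chr17:28328456-28328485, plus strand): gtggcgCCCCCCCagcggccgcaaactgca
Rpl12 (chr2:32961697-32961726, plus strand): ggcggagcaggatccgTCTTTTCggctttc
Rpl31 (chr1:39367836-39367865, plus strand): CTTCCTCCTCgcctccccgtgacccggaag

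A start at C followed by a C or T run of at least 5 bases was found in 12 of the 56 members (21.4%) and in 2.5% of all 27025 windows. A C or T run of at least 8 bases between 10 before and 20 after the start was found in 35.7% of the members and in 11.2% of all windows. In the wider window from 250 bases before to 50 after the start, searched on both strands, the ETS family core CCGGAAG was found in 39.3% of the members against 9.1% of all windows. The YY1 motif AAGATGG (14.3% against 6.5%) and the GC box GGGCGG (58.9% against 35.9%) were also more frequent, and the TATA box TATAAA was less frequent (8.9% against 14.2%). These matches describe letters near annotated starts and not binding or use. The 15 members whose annotated start opened a C or T run of at least 5 bases had a median LN minus LP difference in log2 expression of -0.28 in CD11b+, -0.10 in CD103+ and -0.41 in DP DCs, and the other 41 had -0.33, -0.08 and -0.47.

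Libraries held 23574292 to 46901985 counts in total. DC markers were read in every library, with all 10 above 1 CPM (counts scaled to a fixed library size, 1e+06) in 4 groups and 9 of 10 in both CD103+ groups. Their summed level, mostly Cd74 and H2-Ab1, was lower in LN (20753 to 47149 CPM) than in LP libraries (64195 to 78757 CPM). From LP to LN, 3, 2 and 3 of the 10 rose and 6, 7 and 7 fell in CD11b+, CD103+ and DP DCs. Over all genes, 15.2%, 27.6% and 26.9% rose and 11.6%, 24.1% and 22.7% fell by the same test under TMM, described below. Itgae, which encodes CD103, was at 1238 to 1440 CPM in LP CD103+ libraries. It was at 27.0 to 40.03 CPM in LN CD103+ and 41.1 to 49.1 CPM in LN DP libraries, below the 92.1 to 293 CPM of LP CD11b+ libraries. Itgam, which encodes CD11b, was at 63.2 to 76.4 CPM in LP DP libraries. It was at 4.85 to 5.76 CPM in LN DP and 13.8 to 25.7 CPM in LN CD11b+ libraries. Whether cells of the same group name were alike in LP and LN was not tested. B cell markers summed to 9.95 to 51.7 CPM in LP and 50.3 to 177 CPM in LN libraries. Macrophage markers summed to 36.3 to 1329 CPM in LP and 8.94 to 411 CPM in LN libraries. Plasma cell markers summed to 1409 to 1812 CPM in LP CD11b+ and 1184 to 1310 CPM in LN CD11b+ libraries. In the other groups they summed to 188 to 503 CPM. T cell markers stood apart by tissue, with a summed level of 8.73 to 33.5 CPM in LP and 623 to 1185 CPM in LN libraries, and all 11 markers had a mean above 1 CPM in each LN group. The largest single part of the LN sum was Tcf7, at 286 to 676 CPM. The epithelial sum, mostly Epcam and Cdh1, was 61.2 to 855 CPM in LP and 26.3 to 66.4 CPM in LN libraries. In LP DP libraries, where it was highest, Epcam was at 412 to 524, Cdh1 at 140 to 264 and Krt8 at 3.08 to 20.4 CPM. Itgal was read in every library, at 6.45 to 26.6 CPM. The LP libraries had Ddx3y, a Y-linked gene, at 50.04 to 74.4 CPM and Xist at 0.286 CPM at most, while the LN libraries had Xist at 15.4 to 89.1 CPM, and LN CD11b+ replicate 3 and LN DP replicate 3 also had Ddx3y at 58.0 and 52.2 CPM. Tissue and sex-linked expression thus cannot be told apart in these libraries, and the part of the reads of other cell types in the results below was not tested. In bulk libraries, less RNA per cell and fewer cells of a type also cannot be told apart.

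The family took a smaller share of the LN than of the LP libraries in CD103+ and DP DCs by total counts, and in CD11b+ and DP DCs once library sizes were normalized by TMM (trimmed mean of M values, a scaling that sets the bulk of genes equal). The 76 genes held 1.92, 1.97 and 1.83% of the total count in the LP CD11b+ libraries and 1.97, 1.77 and 1.49% in the LN CD11b+ libraries. They held 1.70, 1.73 and 1.78% in LP CD103+ and 1.43, 1.44 and 1.60% in LN CD103+ libraries. They held 1.91, 2.08 and 2.01% in LP DP and 1.39, 1.495 and 1.23% in LN DP libraries. By total counts the tissues overlapped in CD11b+ DCs and were separate in the other subsets, with the LP DP mean of 2.00% ± 0.088 (SD, n = 3) the highest and the LN DP mean of 1.37% ± 0.14 the lowest.

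Scaling moved the 3 LN groups apart, since the TMM factors were 1.12 to 1.21 in LN CD11b+, 0.853 to 0.877 in LN CD103+ and 0.893 to 0.918 in LN DP libraries, against 0.992 to 1.08 in LP. Of the TMM-normalized library size the family held 1.80% ± 0.089 in LP and 1.49% ± 0.18 in LN CD11b+ DCs. It held 1.72% ± 0.043 and 1.73% ± 0.13 in LP and LN CD103+ DCs, and 1.96% ± 0.085 and 1.51% ± 0.14 in LP and LN DP DCs. Tissues then overlapped in CD103+ DCs only, and the order of the 3 LN groups changed, from CD11b+ highest by total counts to CD103+ highest under TMM. With 3 libraries against 3 an exact permutation test cannot go below a p of 0.1, so none is given. The 2 libraries with both Xist and Ddx3y had the lowest share of their groups, and without them the mean share by total counts was 1.87% in LN CD11b+ and 1.44% in LN DP DCs.

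**Figure D1:**
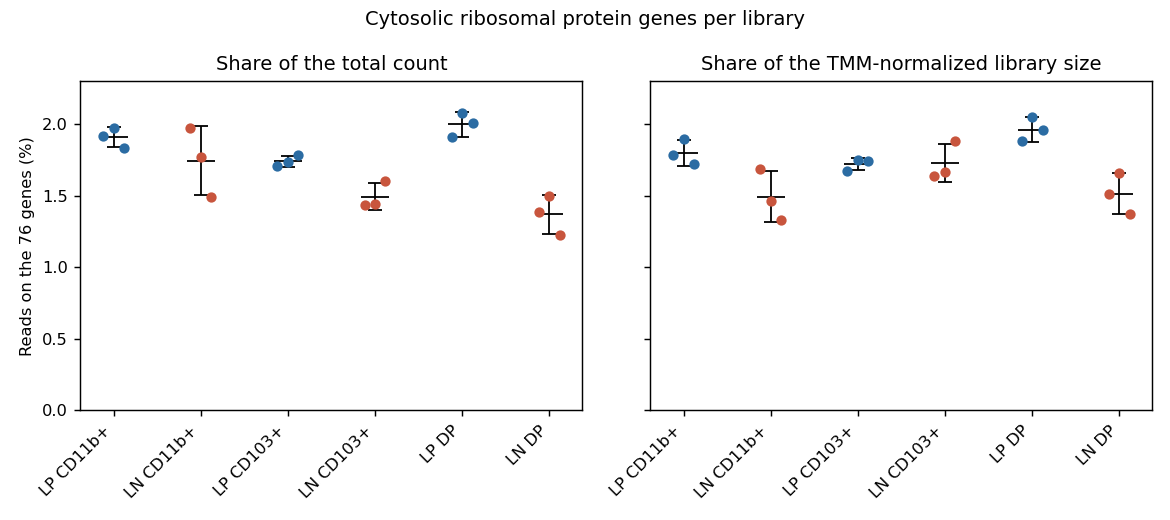
Share of reads on the 76 ribosomal protein genes (y axis, %) in each of the 18 libraries, by group on the x axis, of the total count (left) and of the TMM-normalized library size (right). Points are libraries (LP blue, LN red), and lines with whiskers are the mean and SD of 3 libraries. LN DP libraries lie below LP DP libraries in both panels (1.37% against 2.00% and 1.51% against 1.96% on average), while LN CD103+ libraries lie below LP CD103+ libraries in the left panel only.

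In CD11b+ DCs, 20 ribosomal protein genes fell from LP to LN by a small amount under TMM, and the other 56 did not pass. Under TMM the median log2 fold change of the 76 members (LN minus LP) was -0.30, where the median of all genes was 0.03, and 73 members were below 0. By edgeR's quasi-likelihood test at an adjusted p under 0.01 (Benjamini-Hochberg over all genes tested), 20 members fell and 0 rose, which is 26.3% of the members, where 11.6% of all genes fell and 15.2% rose. The 3 largest falls were those of Rpl31, Rpl10a and Rpl32.

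Rpl31, a protein at the rim of the tunnel through which the new peptide leaves, was at 87.2, 91.1 and 87.9 CPM in LP and at 70.1, 61.4 and 52.9 CPM in LN CD11b+ libraries (log2 fold change -0.53 ± 0.11 SE, adjusted p 0.0014). Rpl10a, which forms the mobile stalk where spent tRNA leaves, was at 101, 99.5 and 99.5 CPM in LP and at 78.7, 65.9 and 66.2 CPM in LN (-0.51 ± 0.09, adjusted p 0.0002). Every LN library lay below every LP library for both genes. Rpl32 had 379, 409 and 367 CPM in LP and 331, 278 and 204 CPM in LN (-0.51 ± 0.13, adjusted p 0.0052). Its groups did not overlap either, but the LN values were spread over a wide range. Its call was lost without LP CD11b+ replicate 1 or 2 or LN CD11b+ replicate 2 or 3, and under total counts neither Rpl31 nor Rpl32 passed (adjusted p 0.013 and 0.042).

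No member passed the study's additional limit of a 2-fold change in CD11b+ DCs, which 15.2% of all genes passed under TMM. Under total counts the median of all genes rose from 0.03 to 0.17, the median of the members was -0.16, and 4 members fell (8.16% of all genes fell). The gap between members and all genes was -0.33 and -0.32 under the 2 scalings. A change of scaling shifts all genes of a comparison by nearly the same amount, so this likeness was set in advance. The count under TMM leaned on single libraries and was 6 without LP CD11b+ replicate 2, 7 without LN CD11b+ replicate 2, 7 without LN CD11b+ replicate 3 and 40 without LN CD11b+ replicate 1.

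In CD103+ DCs, members moved in both directions and the family as a whole lay close to the other genes. Under TMM 10 members rose and 9 fell, or 13.2% and 11.8% of the members, where 27.6% and 24.1% of all genes did. The median of the members was -0.08 and that of all genes 0.04. Both shares lay below those of all genes, and 0 members passed the 2-fold limit (35% of all genes did).

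The largest rises were those of small subunit proteins. Rps19, a protein needed for the maturation of the small subunit and mutated in Diamond-Blackfan anaemia, was at 423, 456 and 429 CPM in LP and at 727, 745 and 884 CPM in LN CD103+ libraries (log2 fold change 0.85 ± 0.10, adjusted p 2.1e-06). Rps27, a zinc finger protein of the small subunit, was at 223, 220 and 256 CPM in LP and at 385, 375 and 476 CPM in LN (0.82 ± 0.14, adjusted p 5.3e-05). Rpsa, also known as the laminin receptor, was at 359, 387 and 402 CPM in LP and at 622, 631 and 736 CPM in LN (0.79 ± 0.10, adjusted p 1.7e-06). All 3 genes were higher in every LN than in every LP CD103+ library, and all 3 still rose under total counts, by 0.62, 0.59 and 0.57 on the log2 scale (adjusted p 4.3e-05, 0.0016 and 9.2e-05).

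The other 7 members that rose under TMM were Rps24 and Rps26 of the small subunit and Rpl7, Rpl11, Rpl19, Rpl39 and Rpl41 of the large subunit, with log2 fold changes between 0.33 and 0.51. None of these 7 passed under total counts, where their log2 fold changes were 0.10 to 0.28. Rpl41, which encodes a protein of very few residues, had the largest of them, 0.51 ± 0.14 (adjusted p 0.0048).

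Rpl10a was among the members with the largest falls in CD103+ DCs. It was at 89.8, 96.2 and 94.98 CPM in LP and at 57.3, 58.2 and 63.7 CPM in LN (-0.65 ± 0.09, adjusted p 5.7e-06). The tissues did not overlap. Rpl4, Rpl8, Rpl10, Rpl12, Rpl14 and Rpl18 fell as well. Under total counts 35 members fell and 3 rose (30% and 22.7% of all genes), with a median of -0.31 where the median of all genes was -0.18, so whether more members rose or fell in CD103+ DCs depended on the scaling. Without LP CD103+ replicate 2 the count in either direction under TMM was 12 in place of 19, and without LN CD11b+ replicate 1 it was 29.

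In DP DCs, most ribosomal protein genes were lower in LN than in LP. Under TMM 48 members fell and 2 rose, or 63.2% and 2.63% of the members, where 22.7% and 26.9% of all genes did. The median of the members was -0.45, a level 26.9% lower, and the median of all genes was 0.07. The changes were small, since 0 members passed the 2-fold limit (32.1% of all genes did).

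Rpl10a was at 105, 115 and 104 CPM in LP and at 54.7, 60.7 and 48.9 CPM in LN (-0.98 ± 0.09, adjusted p 5.8e-08). Rpl12, at the base of the stalk that recruits elongation factors, was at 87.7, 96.5 and 94.1 CPM in LP and at 48.5, 57.7 and 44.9 CPM in LN (-0.88 ± 0.14, adjusted p 3.8e-05). The LN values lay well below the LP values for both genes, without overlap.

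The members that rose in DP DCs were Rps19 and Rpsa. Rps19 was at 525, 589 and 529 CPM in LP and at 696, 784 and 648 CPM in LN (0.37 ± 0.10, adjusted p 0.005). Rpsa was at 441, 472 and 470 CPM in LP and at 603, 628 and 512 CPM in LN (0.33 ± 0.09, adjusted p 0.006). The groups did not overlap for either gene, but neither passed under total counts (0.20 and 0.16, adjusted p 0.093 and 0.17). Rps19 also lost its call without LP DP replicate 1 or 3, LN DP replicate 1 or 2 or LN CD11b+ replicate 2 (lowest 0.29, adjusted p 0.034), and Rpsa without any 1 of the LP DP libraries, LN DP replicate 1 or 2 or LN CD11b+ replicate 1 or 2 (lowest 0.27, adjusted p 0.036). Rps27 had 295, 311 and 310 CPM in LP and 367, 413 and 314 CPM in LN, and did not pass (0.26 ± 0.13, adjusted p 0.11).

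Under total counts 62 members fell in DP DCs and 0 rose (27.4% and 22.4% of all genes), with a median of -0.63. Of these, 7 fell more than 2-fold (16.4% of all genes did), among them Rpl10a (-1.15), Rpl12 (-1.05), Rpl5 (-1.04), Rps27a (-1.03) and Rpl31 (-1.01). Rpl5 binds the 5S rRNA together with Rpl11, and Rps27a is made as a fusion with ubiquitin. The gap between members and all genes was -0.52 under both scalings, and a change of scaling hardly moves such a gap. Without LN DP replicate 3, which has both Xist and Ddx3y, 39 members passed under TMM in either direction in place of 50, with a median of -0.41.

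**Figure D2:**
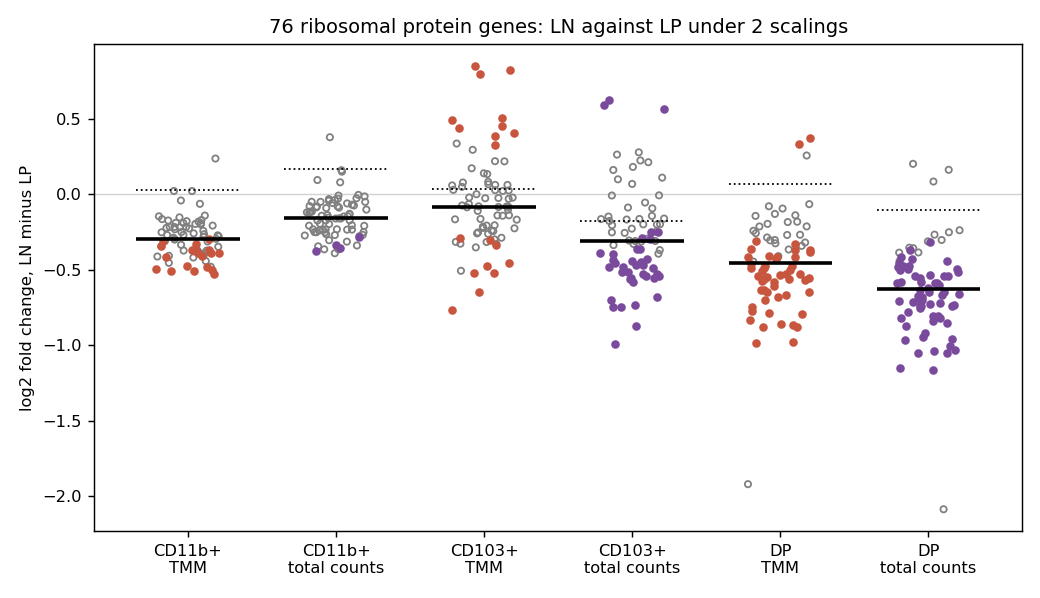
Log2 fold change of LN minus LP (y axis) for each of the 76 members in each DC subset under TMM and under total counts (x axis). Filled points passed an adjusted p under 0.01, open points did not, solid lines are the median of the members and dotted lines the median of all 17074 genes tested. The solid line lies below the dotted line in all 6 columns, by 0.12 to 0.52, and a change of scaling hardly moves this gap. The lone point near -2 in both DP columns is Rpl24, which had hardly any reads.

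Without regard to a test, the LN and LP libraries did not overlap for 44 members in CD11b+ DCs, all lower in LN, where 23.1% of all genes were lower without overlap under TMM. In CD103+ DCs 14 members were higher and 29 lower without overlap (34.1% and 31.5% of all genes), and in DP DCs 3 were higher and 66 lower (35.8% and 31.2%). Under total counts the members that were lower without overlap numbered 17 in CD11b+, 52 in CD103+ and 73 in DP DCs (16.9%, 38.2% and 37% of all genes). The share of members without overlap thus came nearer to that of all genes in CD11b+ DCs under that scaling and stayed well above it in DP DCs.

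The members that passed were partly shared. Under TMM 8 members fell in all 3 subsets, among them Rpl4, Rpl8, Rpl10, Rpl10a, Rpl14 and Rpl18, and 0 rose in all 3. Rps24 rose in CD103+ and fell in DP DCs, and Rps26 rose in CD103+ and fell in CD11b+ DCs. Under total counts 4 members fell in all 3 subsets and 0 moved in opposite directions, and 11 members passed in no subset. The 17 members that passed in no subset under TMM included Rps29 and Rps15a. Shares of all genes with these patterns were not counted. These numbers thus do not show whether members shared directions more often than other genes.

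Across the 76 members, the log2 fold changes of CD103+ and DP DCs had a Pearson r of 0.75 (Spearman rho 0.84), and r was 0.88 without Rpl24. Those of CD11b+ and CD103+ DCs had an r of 0.62, and those of CD11b+ and DP DCs 0.46, or 0.74 without Rpl24. No library is shared between these comparisons, but all come from the same normalization and the members differ in base composition and mappability, so the values are descriptions across genes and not tests. The order of members was thus alike, with Rps19, Rps27 and Rpsa at the upper end and Rpl10a near the lower end of both CD103+ and DP DCs, while the DP values lay lower throughout.

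**Figure D3:**
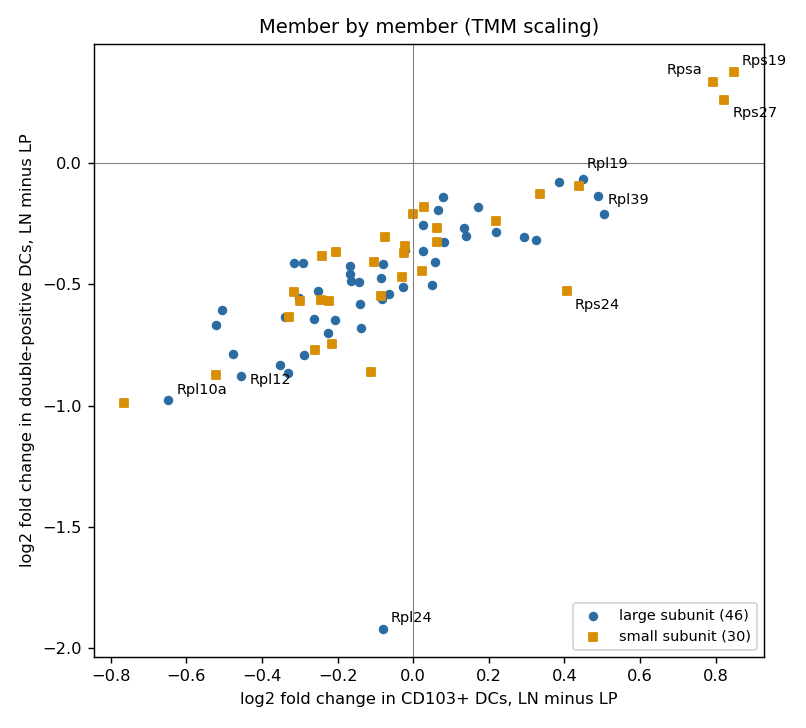
Log2 fold change of LN minus LP in CD103+ DCs (x axis) against that in DP DCs (y axis) for the 76 members under TMM, with large subunit members as blue circles and small subunit members as orange squares. Rps19, Rps27 and Rpsa stand alone at the upper right (0.79 to 0.85 on the x axis), and Rpl10a lies at the lower left of the main group, with Rpl24 below it at -1.92 on the y axis.

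Relative to the family itself, the makeup of the ribosomal protein transcripts also differed between the tissues, and this comparison depends on neither scaling. Rps19, Rps27 and Rpsa together made up 6.01 to 6.82% of all member reads in the 9 LP libraries. They made up 7.96 to 8.37% in LN CD11b+, 10.5 to 11.1% in LN CD103+ and 10.7 to 11.04% in LN DP libraries, so every LN library lay above every LP library. These 3 genes were singled out after their values were seen. On GRCm38 Rps19 (ENSMUSG00000040952) lies on chromosome 7 from 24884371 to 24889806, Rps27 (ENSMUSG00000090733) on chromosome 3 from 90212522 to 90213651 and Rpsa (ENSMUSG00000032518) on chromosome 9 from 120127689 to 120132369, so they do not neighbour each other.

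The reads of large subunit members were 1.35 to 1.44 times those of small subunit members in LP libraries. The ratio was 1.33 to 1.42 in LN CD11b+, 1.22 to 1.25 in LN CD103+ and 1.26 to 1.32 in LN DP libraries. Rps19, Rps27 and Rpsa are all small subunit members and enter this ratio. Without them the ratio was 1.58 to 1.72 in LP libraries. It was then 1.65 to 1.77 in LN CD11b+, 1.62 to 1.64 in LN CD103+ and 1.68 to 1.75 in LN DP libraries. By subunit, the median log2 fold changes under TMM were nearly equal, at -0.30 for the large and -0.28 for the small subunit in CD11b+, -0.08 and -0.05 in CD103+, and -0.48 and -0.40 in DP DCs.

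In a fit that used the summed member count as the library size, 2 members rose and 0 fell relative to the family in CD11b+ DCs (21.4% and 5.01% of all genes in this fit), namely Rps27 by 0.50 and Rps19 by 0.30 on the log2 scale. In CD103+ DCs 12 members rose and 19 fell relative to the family (25.7% and 22.1% of all genes), and in DP DCs 7 rose and 16 fell (35.3% and 13.3%). The members farthest above the family were Rps19 (0.84) and Rps27 (0.81) in CD103+ and Rps19 (0.75) and Rpsa (0.71) in DP DCs. Rpl10a was among those farthest below in both (-0.65 and -0.61).

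**Figure D4:**
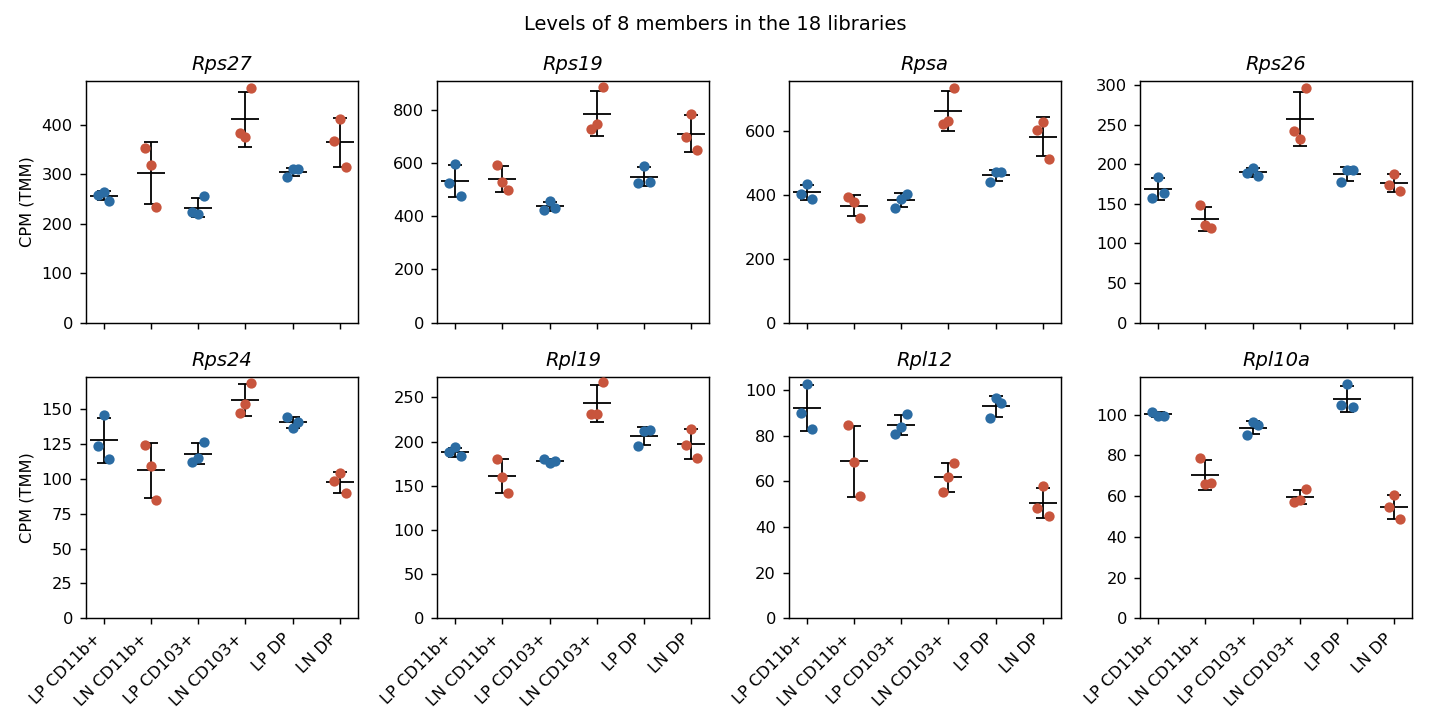
Levels in CPM with TMM scaling (y axes, from 0) of 8 members in the 6 groups (x axes), with libraries as points (LP blue, LN red) and the mean and SD of 3 libraries as lines with whiskers. Rps27, Rps19 and Rpsa have their highest means in the LN CD103+ and LN DP libraries, Rps24 is high in LN CD103+ and low in LN DP libraries, and Rpl10a is lower in LN in each subset, while Rpl12 is lowest on average in LN DP libraries.

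Whether the tissue difference of a member differed between the 3 subsets was tested with a single F test per gene. Under TMM 12 members passed at an adjusted p under 0.01 (15.8% of the members), where 31.5% of all genes did, and under total counts 21 members passed (37% of all genes). Both shares lay below those of all genes. The 5 members with the smallest p were Rpsa (adjusted p 9.6e-05), Rps26 (0.00057), Rps24 (0.00064), Rps19 (0.00077) and Rpl19 (0.00077), of which Rpsa and Rps24 also passed under total counts.

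Rps26, which lies where the mRNA leaves the small subunit, was at 158, 184 and 164 CPM in LP and 148, 123 and 120 CPM in LN CD11b+ libraries. In CD103+ DCs it was at 188, 195 and 185 CPM in LP and 242, 232 and 296 CPM in LN, and in DP DCs at 178, 193 and 193 CPM in LP and 174, 188 and 166 CPM in LN. It was thus lower in LN in CD11b+ (-0.37 ± 0.10, adjusted p 0.0073), higher in CD103+ (0.44 ± 0.10, adjusted p 0.001) and overlapping between tissues in DP DCs (-0.09 ± 0.10, adjusted p 0.43). Under total counts its CD103+ difference was 0.21 and its CD11b+ difference -0.23, and neither passed.

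Rps24, also mutated in Diamond-Blackfan anaemia, was at 112, 115 and 126 CPM in LP and 147, 153 and 169 CPM in LN CD103+ libraries. In DP DCs it was at 144, 136 and 141 CPM in LP and 98.2, 104 and 89.6 CPM in LN. Its log2 fold changes were 0.41 ± 0.12 (adjusted p 0.0064) and -0.53 ± 0.12 (adjusted p 0.001), without overlap in either subset, while the CD11b+ libraries overlapped. Rpl19, which forms a bridge between the subunits, was at 180, 176 and 178 CPM in LP and 231, 232 and 267 CPM in LN CD103+ libraries (0.45 ± 0.09, adjusted p 0.00029), with differences of -0.23 and -0.07 in CD11b+ and DP DCs that did not pass. The F test values of Rps26, Rps19 and Rpl19 under total counts were 0.012, 0.020 and 0.020.

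Some members form small structural groups. Rplp0, Rplp1 and Rplp2 make up the P stalk, which recruits the GTPases that drive initiation and elongation. Under TMM Rplp0 fell in CD11b+ (-0.37 ± 0.08, adjusted p 0.0016) and DP DCs (-0.33 ± 0.08, adjusted p 0.0021) and was at 0.08 in CD103+ DCs, while Rplp1 and Rplp2 passed in no subset. Under total counts all 3 fell in DP DCs (-0.50, -0.46 and -0.48) and none passed in the other subsets. Rpl5 and Rpl11 carry the 5S rRNA and bind Mdm2 when ribosome assembly is disturbed. Rpl5 had 162, 181 and 170 CPM in LP and 94.3, 113 and 74.6 CPM in LN DP libraries and fell there (-0.87 ± 0.12, adjusted p 1.3e-05). Rpl11 rose in CD103+ DCs (0.33 ± 0.10, adjusted p 0.0086), while its difference in DP DCs was -0.32 ± 0.10 (adjusted p 0.01). Under total counts Rpl11 was at 0.10 in CD103+ DCs and did not pass, and it fell in DP DCs (-0.49, adjusted p 0.00053).

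The X-linked members were Rpl10, Rpl36a, Rpl39 and Rps4x. Rpl10, which joins the large subunit last and helps to shape its catalytic centre, was at 419, 456 and 403 CPM in LP and 363, 328 and 315 CPM in LN CD11b+ libraries, and it fell in all 3 subsets under TMM (-0.35, -0.29 and -0.41). Rps4x fell in CD11b+ (-0.38 ± 0.09) and DP DCs (-0.31 ± 0.09), Rpl36a fell in DP DCs (-0.49 ± 0.11), and Rpl39 rose in CD103+ DCs (0.49 ± 0.12). Under total counts Rpl39 did not pass in CD103+ DCs (0.26, adjusted p 0.078), and Rpl10 and Rps4x did not pass in CD11b+ DCs (-0.21 and -0.24).

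Between subsets of the LP, few members passed in the fit of all libraries, and more did once replicate numbers were used as a block. Under TMM 1 member was higher in LP CD103+ than in LP CD11b+ DCs (11.4% of all genes were higher), and 0 were lower (14.6%). Under total counts 0 were higher and 5 lower (9.78% and 16.4% of all genes). Between LP DP and LP CD11b+ DCs 0 members passed by edgeR, 3 had an unadjusted p under 0.05, 0 passed under total counts, and 7.61% of all genes passed in either direction (2.86% higher and 4.74% lower, or 2.21% and 5.34% under total counts). Between LP DP and LP CD103+ DCs 7 members were higher, with Rpl29 (0.39 ± 0.09), Rpl21 (0.34 ± 0.08) and Rps9 (0.34 ± 0.09) at the top (12.7% of all genes were higher), and 1 was lower (11.2% of all genes). The family median was 0.21 in this last comparison, and under total counts 7 members were higher and 0 lower (12.9% and 11% of all genes).

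Replicate numbers of LP CD103+ libraries paired with those of the other LP subsets, and with the number as a block in the 9 LP libraries the paired counts were larger. There 2 members were higher and 8 lower in LP CD103+ than in LP CD11b+ DCs, and 24 were higher and 1 lower in LP DP than in LP CD103+ DCs (29.3% and 27.9% of all genes passed in either direction). Without the block the latter count was 0 when LP CD103+ replicate 1, LP CD103+ replicate 3 or LP DP replicate 2 was left out, and 1 without LP DP replicate 3.

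In the LN, the comparison of CD103+ with CD11b+ DCs turned with the scaling. Under TMM 14 members were higher and 1, Rpl4, was lower in LN CD103+ DCs (19.5% and 23.5% of all genes). Rps26 (0.98 ± 0.10, adjusted p 3.7e-07), Rpsa (0.86 ± 0.10, adjusted p 1e-06) and Rps20 (0.77 ± 0.11, adjusted p 1.2e-05) were highest, and the family median was 0.16 where all genes had -0.13. Under total counts 2 members, Rps26 (0.54) and Rpsa (0.42), were higher and 26 lower (10.9% and 38.7% of all genes), with a median of -0.27 where all genes had -0.56. Rps26 and Rpsa were thus higher and Rpl4 lower in LN CD103+ DCs under both scalings.

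LN DP DCs differed from LN CD11b+ DCs under TMM in 5 members, of which Rpsa (0.67 ± 0.10), Rps26 (0.43 ± 0.10) and Rps19 (0.39 ± 0.10) were higher and 2, among them Rpl10a (-0.36 ± 0.09), were lower (15.3% and 17% of all genes were higher and lower). Under total counts 44 members were lower and 0 higher (31.7% and 8.09% of all genes), and the median was -0.40 in place of -0.03, so this comparison too depended on the scaling. LN DP DCs had 0 members higher and 5 lower than LN CD103+ DCs under both scalings (8.02% and 7.39% of all genes under TMM, 9.46% and 5.78% under total counts), among them Rps24 (-0.68), Rpl35a (-0.62), Rps20 (-0.59) and Rps26 (-0.55), the values being those under TMM.

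Members differed far more in level than between groups. Per length of exon, the mean over the 18 libraries was highest for Rpl13 (856 CPM per kilobase), Rps27 (676), Rps29 (625) and Rplp0 (566). It was lowest for Rpl24 (0.499), Rpl13a (6.12), Rpl23a (23.8), Rps15a (25.5) and Rpl22 (32.2). Ribosomes hold nearly equal numbers of these proteins, and the part of uncounted reads in this range of levels was not tested.

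Ribosomal protein genes have many processed pseudogenes, and the study's methods, given for its other libraries, kept only reads that map to a single place. Among stretches of 75 bases of each member's transcripts, a median of 32.3% also occur elsewhere in the annotated transcripts, with over 50% in 24 members and under 10% in 11. Rpl24 shares 80.9% and has 47.0% of its exon bases under another gene, and its level was 0.0349 to 0.82 CPM in all libraries, so its DP difference (-1.92 ± 0.67, adjusted p 0.02) rests on few reads. Rpl35 (89.2% shared, 66.2% of exon bases overlapped), Rpl5 (84.1% and 26.7%), Rpl23a (81.7% and 62.3%) and Rpl13a (36.4% and 35.4%) are uncertain as well, which bears on the fall of Rpl5 in DP DCs. Rpl10a shares 56.7%, against 13.4% for Rps19, 42.4% for Rps27 and 29.9% for Rpsa.

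The 11 members with under 10% of shared stretches had medians near those of the family. Their median log2 fold change under TMM was -0.26 in CD11b+, -0.10 in CD103+ and -0.41 in DP DCs, and all 11 were below 0 in CD11b+ and DP DCs. Of these, 3 fell in CD11b+ (11.6% of all genes), 2 fell and 1 rose in CD103+ (24.1% and 27.6%), and 5 fell in DP DCs (22.7%). In CD103+ DCs these counts are below the shares of all genes. Rpl4 (8.5% shared), whose protein lines the exit tunnel, had 881, 976 and 934 CPM in LP and 576, 615 and 566 CPM in LN DP libraries (-0.67 ± 0.08, adjusted p 9.4e-07). Across members, the shared percentage had a Pearson r of -0.13, -0.23 and -0.28 with the differences in CD11b+, CD103+ and DP DCs.

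Ribosomal proteins whose symbols fall outside the naming rule behaved in different ways. Rack1, a scaffold on the head of the small subunit, was at 389, 418 and 398 CPM in LP and 215, 240 and 188 CPM in LN DP libraries, and it fell in all 3 subsets (-0.59, -0.64 and -0.90). Rps3a1 fell in DP DCs (-0.60 ± 0.09, adjusted p 1.3e-05). Fau, which encodes Rps30 as a fusion with a ubiquitin-like protein, rose in CD103+ DCs under TMM (0.65 ± 0.13, adjusted p 0.00025). It did not pass there under total counts (0.42).

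Of the 9 listed paralogs of members, 8 were tested and Rpl10l was not. Rps27l, a p53-induced relative of Rps27, was at 112, 127 and 127 CPM in LP and 243, 249 and 300 CPM in LN CD103+ libraries and rose more than 2-fold (1.12 ± 0.12, adjusted p 6.5e-07), though under total counts its difference of 0.89 was below 2-fold. It rose in DP DCs under TMM (0.44 ± 0.12, adjusted p 0.0051) but did not pass there under total counts (0.27), and in CD11b+ DCs it had -0.37 ± 0.12 (adjusted p 0.026). Rpl36al fell in CD103+ (-1.68 ± 0.23) and DP DCs (-1.02 ± 0.22), Rpl22l1 fell in DP DCs (-0.72 ± 0.19), and Rpl3l rose in CD103+ and DP DCs from a level of 0.321 CPM at most in LP libraries to 2.02 CPM at most in LN libraries.

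Genes of the machinery that builds ribosomes had larger differences than most ribosomal protein genes. Of 35 ribosome biogenesis genes, which transcribe, process and assemble ribosomal RNA, 21 fell in CD11b+, 30 in CD103+ and 33 in DP DCs under TMM, where 0, 1 and 0 rose (11.6%, 24.1% and 22.7% of all genes fell). Their median log2 fold changes were -0.57, -1.29 and -1.505, and 1, 24 and 26 of them fell more than 2-fold. Under total counts 10, 33 and 33 fell. Polr1a, the largest subunit of RNA polymerase I, had the largest fall of the list over the mean of the 3 tissue differences (-2.29, adjusted p 4.3e-11). Fbl, the methyltransferase fibrillarin, chosen after its values were seen, was at 72.5, 77.4 and 72.7 CPM in LP and 19.2, 23.5 and 17.8 CPM in LN CD103+ libraries.

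Translation factors had medians nearer to those of the members. Of 34 genes, 1 rose and 11 fell in CD11b+, 9 rose and 12 fell in CD103+, and 3 rose and 15 fell in DP DCs under TMM, with medians of -0.24, -0.03 and -0.24. Over all genes 15.2%, 27.6% and 26.9% rose and 11.6%, 24.1% and 22.7% fell in these subsets, and the 9 and 12 of 34 in CD103+ DCs are near those shares. Of 77 mitochondrial ribosomal protein genes tested, which serve the separate ribosome of that organelle, 16, 35 and 44 fell and 3, 8 and 5 rose, with medians of -0.21, -0.29 and -0.43. Over the mean of the 3 tissue differences, single genes of that family lay outside the range of the cytosolic members, which ran from -0.74 to 0.44, with Mrpl14 at 1.38 and Mrps28 at -1.58.

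**Figure D5:**
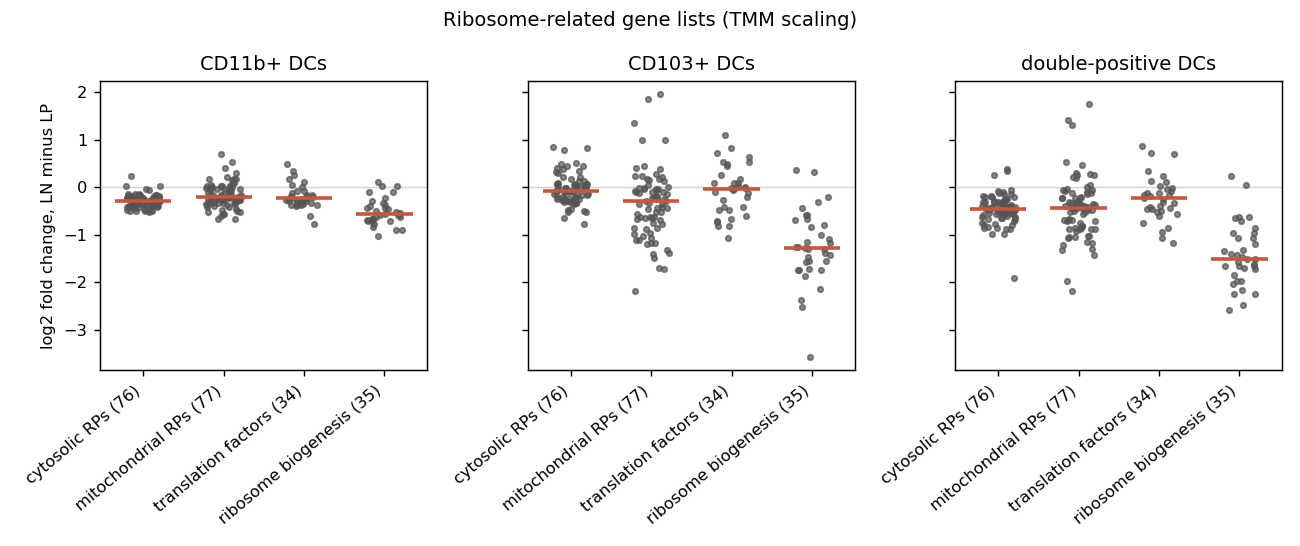
Log2 fold change of LN minus LP (y axis) of single genes (points) in 4 ribosome-related lists (x axis, number of genes tested in brackets) in each DC subset under TMM, with the list's median in red. The cytosolic ribosomal protein genes lie between -0.76 and 0.85 in CD103+ DCs, with a median of -0.08, while ribosome biogenesis genes reach medians of -1.29 in CD103+ and -1.505 in DP DCs.

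Proliferation genes moved in the same samples. All 12 fell more than 2-fold in CD103+ and in DP DCs, with medians of -1.72 and -1.93, and 3 fell in CD11b+ DCs. Their summed level was 534 to 814 CPM in LP libraries, 386 to 542 CPM in LN CD11b+ and 171 to 244 CPM in LN CD103+ and DP libraries. Genes induced by tissue dissociation, which differed between LP and LN in the enzymes used by the study's methods, summed to 16546 to 20386 CPM in LP DP and 9732 to 12364 CPM in LN DP libraries. They summed to 15555 to 17891 CPM in LP and 13476 to 15246 CPM in LN CD11b+ libraries, and the tissues overlapped in CD103+ DCs (6932 to 8408 and 6141 to 7895 CPM). The sums hide moves in both directions. Of the 12 genes, 3, 3 and 4 rose and 3, 4 and 8 fell in CD11b+, CD103+ and DP DCs under TMM. Over all genes 15.2%, 27.6% and 26.9% rose and 11.6%, 24.1% and 22.7% fell. The part of either list in the differences of the members was not tested.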

How the data were processed

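RNA was read from sorted live CD45+ CD64- MHCII high CD11c+ cells with a SMART-seq v4 kit. The authors deposited 1 table of raw counts per Ensembl gene for 18 libraries, with no normalization. FastQC 0.11.7, STAR 2.6 and GRCm38 are named in the submitters' processing notes, and unique alignments and counting without strand are described by the authors for the study's other libraries, so near-identical copies and overlapping genes are uncertain. LP and LN were digested with different enzymes.

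From these counts, all 18 libraries entered a single fit of 6 groups in edgeR 4.0.16 (R 4.3.3), with filterByExpr, TMM and the quasi-likelihood test (two-sided, Benjamini-Hochberg over 17074 genes). A gene passed at an adjusted p under 0.01, and the further limit was a fold over 2. Standard errors were taken from the log2 fold change and its F value. Total counts, the summed member counts, DESeq2 1.42.0, other filters and limits, fewer libraries and a replicate block were alternatives. Total counts of 23574292 to 46901985 limit precision for members with few reads only. CPM are counts scaled to a TMM-normalized library size of 1e+06. Members named by rule were the 3 largest rises and falls among those passing in each tissue comparison, the 5 lowest p-values of the F test, the 2 farthest above and below the family, the 5 highest and lowest levels per length and the X-linked members. Paralogs, ribosomal proteins outside the naming rule and the extremes of each other list were named too, and any further member was chosen after its values were seen. A few genes that these rules name are not reported here. The code was tested on simulated data. The members and lists were chosen with earlier results of these data known.

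Same-numbered libraries deviated together within the LP, where 8 of 9 pairs had a correlation over 0.1 (0.075 to 0.25), including all pairs with LP CD103+. This held for 1 of 9 pairs within the LN and for 0 of 27 between tissues, and no label gives the numbers a meaning.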

Additional observations from a re-analysis of the deposited data

Results flagged for a closer look

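The LN minus LP difference varied between the 3 DC subsets in 12 members by edgeR's quasi-likelihood F test under TMM. The adjusted p was 9.6e-05 for Rpsa, 0.00057 for Rps26, 0.00064 for Rps24, 0.00077 for Rps19 and 0.00077 for Rpl19. It was 0.00095 for Rpl7, 0.0013 for Rpl11, 0.0015 for Rpl39, 0.0033 for Rpl15, 0.005 for Rplp2, 0.0059 for Rplp0 and 0.0076 for Rpl41. Of all genes tested, 31.5% passed this test. Under TMM in 10 of the 12 the CD103+ value was above 0 while the CD11b+ value was below it, the exceptions being Rps19, at 0.02 in CD11b+ DCs, and Rpl15, at -0.42, -0.14 and -0.68 in CD11b+, CD103+ and DP DCs. Under total counts Rplp0 was below 0 in both, at -0.23 in CD11b+ and -0.14 in CD103+ DCs.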

How the results depend on the processing

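Counts below are members at an adjusted p under 0.01 at any fold unless a 2-fold limit is named, and the cause of each shift was not tested. Except for total counts and the block in the LP, shares of all genes were not counted for these alternatives. Under total counts the tissue counts were 4 in CD11b+ (median -0.16) and 38 in CD103+ DCs (median -0.31), 7 fell past 2-fold in DP DCs (median -0.63), and the subset counts were 5 for LP CD103+ against CD11b+, 28 (median -0.27) for LN CD103+ against CD11b+, 44 (median -0.40) for LN DP against CD11b+ and 21 for the F test. The DESeq2 test gave 40 in CD11b+ DCs, 4 for LP CD103+ against CD11b+, 16 for LP DP against CD103+, 24 (1 past 2-fold) for LN CD103+ against CD11b+, 9 for LN DP against CD11b+, 17 for LN DP against CD103+ and 23 for the F test, and DESeq2's size factors gave 1 past 2-fold for LN CD103+ against CD11b+. At an adjusted p under 0.05 the counts were 43, 33 and, past 2-fold in DP DCs, 1, then 6, 1 and 22 in the LP, 26, 15 and 19 in the LN, 28 for the F test and 10 relative to the family in CD11b+ DCs. Without a filter 1 passed 2-fold in DP DCs, 3 passed for LP DP against CD103+, and 1, 19 and 14 passed relative to the family in CD11b+, CD103+ and DP DCs. With at least 100 counts in at least 3 libraries the counts were 3 for LP CD103+ against CD11b+, 8 for LN DP against CD11b+ and 4 relative to the family in CD11b+ DCs. With only the 6 libraries compared they were 3 in CD11b+ DCs, 2 past 2-fold in DP DCs, 2 and 19 for LP CD103+ against CD11b+ and LP DP against CD103+, 1 past 2-fold for LN CD103+ against CD11b+ and 2 for LN DP against CD11b+.

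With the replicate block in the 9 LP libraries the counts were 10, 1 and 25, and with the replicate block in all 18 libraries they were 18, 19 and 47 for the 3 tissue differences and 10 for the F test. The block moved no other count by more than 1.5 times. The mean share under TMM was 1.80% in LP CD11b+, 1.49% in LN CD11b+, 1.73% in LN CD103+ and 1.51% in LN DP DCs, and by total counts with pseudogenes and ribosomal proteins outside the naming rule added it was 2.03, 1.85 and 2.12% in LP and 1.84, 1.58 and 1.45% in LN CD11b+, CD103+ and DP DCs.

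Leaving out 1 library at a time gave 6 to 40 in CD11b+ DCs, 12 to 29 in CD103+ DCs, 0 to 4 past 2-fold in DP DCs, 0 to 2 for LP CD103+ against CD11b+, 0 to 8 for LP DP against CD103+, 0 to 1 past 2-fold for LN CD103+ against CD11b+, 3 to 9 (median -0.15 to 0.045) for LN DP against CD11b+, 4 to 8 for LN DP against CD103+, and relative to the family 1 to 3 in CD11b+ and 15 to 26 in DP DCs. Over all alternatives together, 463 values of single named members kept their direction and their side of the limit. The other 26 no longer passed, with no change of direction. These members were named for the largest changes or the smallest p in the same data. Many of the alternatives left out a library outside the comparison. The tally thus does not measure how stable the calls of other members were. Members with few reads, such as Rpl24, are limited by depth.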

Other observations

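Genes of the mTOR and Myc pathways, which set how many ribosomes a cell makes and how TOP mRNAs are used, passed in both directions at shares not far from those of all genes in CD103+ and DP DCs. Of 21 genes, 5 rose and 4 fell in CD11b+, 7 rose and 5 fell in CD103+, and 7 rose and 7 fell in DP DCs by edgeR's quasi-likelihood test under TMM, where 15.2%, 27.6% and 26.9% of all genes rose and 11.6%, 24.1% and 22.7% fell. Over the mean of the 3 tissue differences Mxd1, a partner of Max that represses Myc targets, rose by 3.83 on the log2 scale (adjusted p 5.9e-13). Myc, an activator of ribosome production, chosen after its values were seen, fell by 2.02 (adjusted p 1.3e-10). Deptor, an inhibitor of mTOR, fell by 2.18 (adjusted p 7.3e-08).

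Of 83 ribosomal protein pseudogenes tested under TMM, 2 rose and 1 fell in CD11b+, 6 rose and 1 fell in CD103+, and 2 rose and 3 fell in DP DCs. The medians were -0.17, -0.05 and -0.23. Over all genes 15.2%, 27.6% and 26.9% rose and 11.6%, 24.1% and 22.7% fell, so the pseudogenes passed less often than genes in general.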
